A study of Saccharomyces cerevisiae with 2 samples.

Results

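The 5' external transcribed spacer (5' ETS) is the first 700 nt of the 35S pre-rRNA of S. cerevisiae, ahead of the 18S rRNA. Its nucleotides were chosen by position, from the annotated first nucleotide of the transcript to the last one before the 18S rRNA, which gives 700 of the 6858 nucleotides of the 35S rRNA. At rDNA copy 1 of the genome build sacCer3 (R64) the spacer is annotated as ETS1-1, chromosome XII, 457733 to 458432, on the minus strand, and at copy 2 as ETS1-2, 466870 to 467569. The sequence of the spacer had 0 mismatches between the copies, so that a read cannot be assigned to one of them by sequence.

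The data are RNA-seq of 2 libraries, 1 of wild type and 1 of npl3Δ, in which the gene of the mRNA-binding protein Npl3 is deleted. Cells of both grew at 25 °C, and 200 ng of total RNA went into each library, with a stranded kit and without rRNA depletion. Most strains of the study derive from BY4741, and which of them were sequenced is not named. NPL3 (YDR432W) counts were 1345 for wild type and 3 for npl3Δ. The libraries also differed in genes that mark the mating type. STE2, the α-factor receptor of a cells, had 774 wild type and 8 npl3Δ counts, and STE3, the a-factor receptor of α cells, had 6 and 1326. With 1 library per genotype, the deletion and any other difference between the strains cannot be told apart, no difference is checked by replicates, and p-values are not printed. At copy 1 the 35S rRNA had 102641505 wild type and 97112623 npl3Δ counts, and all non-rRNA features together had 4799318 and 6674796.

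The 5' ETS is transcribed by RNA polymerase I together with the mature rRNAs and is removed during ribosome assembly. The U3 small nucleolar RNA (snoRNA) base-pairs with it and, with the UTP-A and UTP-B protein complexes, builds the small subunit processome on the nascent transcript. Cleavage at the A0 site inside the spacer and at the A1 site at its 3' end releases the fragments 5'-A0 and A0-A1. These fragments are normally short-lived, being degraded by the nuclear exosome with the help of Mtr4 and by the 5'-3' exonuclease Rat1.

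The stretches to which the values below refer are shown first, as DNA in the direction of the transcript, from the RefSeq sequence of sacCer3 at copy 1. The 5' end is nt 1 to 50 (458383 to 458432), and its capitals mark nt 11 and 12, where coverage set in. The U3 stretches carry in capitals the letters complementary to U3. Those at nt 271 to 301 (458132 to 458162) and nt 460 to 489 (457944 to 457973) hold known pairings, and nt 640 to 671 (457762 to 457793) holds a match of letters only. The A0 line is nt 585 to 635 (457798 to 457848), with the listed positions of the site, nt 606 to 613, in capitals. The A1 line spans nt 631 to 720 (457713 to 457802), and its capitals are the first 20 nt of the 18S rRNA.
5' end: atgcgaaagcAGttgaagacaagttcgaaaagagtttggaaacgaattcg
U3 stretch at nt 281: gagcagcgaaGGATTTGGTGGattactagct
U3 stretch at nt 470: tagaggaaacTCAAAGAGTGctatggtatg
U3 match at nt 650: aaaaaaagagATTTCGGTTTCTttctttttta
A0: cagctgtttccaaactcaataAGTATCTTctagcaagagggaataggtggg
A1 side: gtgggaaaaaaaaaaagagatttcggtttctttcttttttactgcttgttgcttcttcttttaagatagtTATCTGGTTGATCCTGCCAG

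The 5' ETS carried more counts in npl3Δ than in wild type when the counts were compared as deposited. ETS1-1 had 105560 wild type and 140212 npl3Δ counts, and ETS1-2 had 107672 and 146292. Over the mean of the copies the quotient of npl3Δ to wild type was 1.34 (95% exact conditional binomial interval 1.33 to 1.35, counting error only). The summed coverage of the spacer gave 1.30. The 5' ETS was a rare part of the transcript in either library, with 152 counts per nucleotide in wild type and 205 in npl3Δ, or 0.790% and 1.18% of the value per nucleotide found for the 18S rRNA. With the summed counts of all non-rRNA features as denominator, themselves 1.39 times as many in npl3Δ, the quotient was 0.966, below 1, and leaving ATG26 and BDF1 out of it gave 1.14. ATG26 alone had 1128663 wild type and 2303870 npl3Δ counts, and BDF1 had 505 and 50981. A rise of the whole spacer therefore depends on the denominator, whereas the unequal change along the spacer, described next, does not.

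Coverage, given by the authors as the number of fragments over a nucleotide, was higher in npl3Δ at 550 of the 700 nucleotides of the 5' ETS, or 78.6%. Over the whole 35S rRNA this share was 44.5%. At 220 nucleotides, or 31.4%, coverage was at least 1.5-fold higher in npl3Δ, against 11.8% of the 35S rRNA. In the internal spacers ITS1 and ITS2 this share was 60.7% and 33.2%. At 6 nucleotides of the 5' ETS, all among the first of the spacer, coverage was at least 1.5-fold lower, against 6.82% of the 35S rRNA. Neighbouring nucleotides share fragments and are not replicates. The median log2 quotient over the spacer was 0.25, and its middle 50% of values ran from 0.02 to 0.71.

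**Figure D1:**
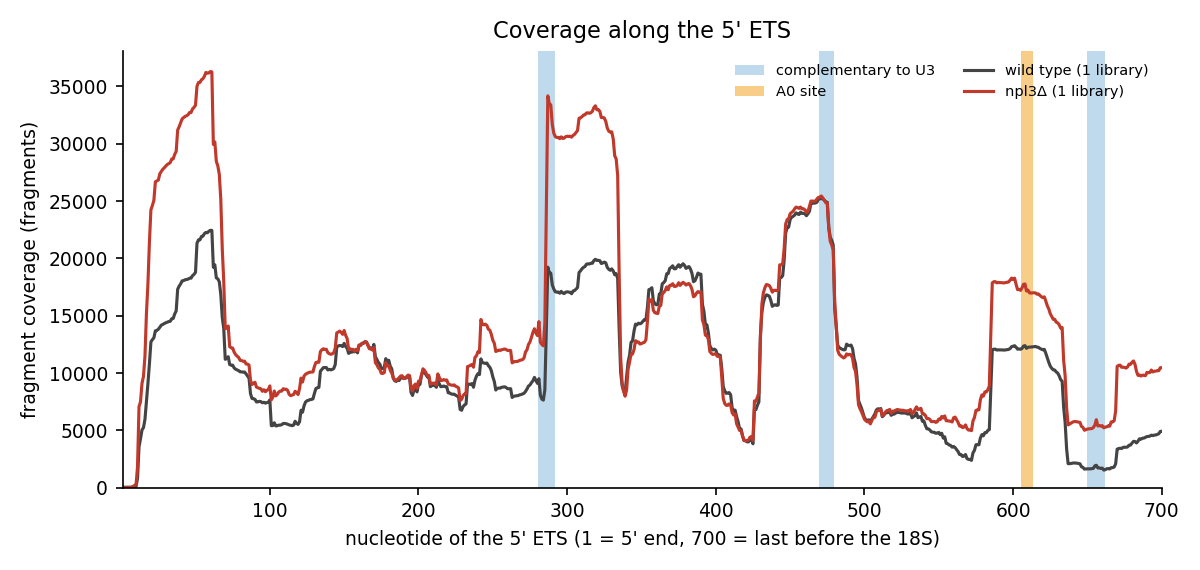
Fragment coverage (fragments, linear axis) of each nucleotide of the 5' ETS in the wild type library and the npl3Δ library, with the stretches complementary to U3 in blue and the A0 site in orange. The lines separate over the first 75 nt, from about nt 250 to 337 and from about nt 550 on. They lie closer but apart at nt 101 to 125, and run together around nt 470, where both are near 25000.

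The difference was uneven along the spacer and largest at its 5' end, around the first U3 stretch and at its 3' end. Among the 14 consecutive windows of 50 nt, 12 had a higher mean coverage in npl3Δ and 6 were at least 1.5-fold higher. The first window (nt 1 to 50) rose from 10867 in wild type to 20330 in npl3Δ, a quotient of 1.87 (1.83 to 1.92), and the next (nt 51 to 100) had 13287 and 18520, a quotient of 1.39 (1.36 to 1.43). These windows hold the 5' end of the primary transcript.

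The windows that followed had smaller differences. Mean coverage was 7999 in wild type and 10200 in npl3Δ at nt 101 to 150, a quotient of 1.28 (1.24 to 1.31), with 1.46 in the first 25 nt of this window. At nt 201 to 250 it was 9103 and 10346, a quotient of 1.14 (1.10 to 1.17). Between these windows, at nt 151 to 200, it was 10785 and 10803, a quotient of 1.00 (0.975 to 1.03), which is a difference within the counting error.

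Around the first U3 stretch the difference was larger again. At nt 251 to 300 mean coverage was 11190 in wild type and 17804 in npl3Δ, a quotient of 1.59 (1.55 to 1.63). At nt 301 to 350 it was 16674 and 25173, a quotient of 1.51 (1.48 to 1.54). The window at nt 301 to 350 had the highest mean coverage of all 14 in npl3Δ, whereas the highest in wild type was the window around the second U3 stretch.

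From nt 351 to 550 the libraries differed little, although coverage itself rose and fell, from 3839 to 25205 in wild type. Mean coverage over these 200 nt, a stretch set after the values were seen, was 13290 in wild type and 13116 in npl3Δ, a quotient of 0.987 (0.963 to 1.01). Its 4 windows had quotients of 0.929, 1.02, 0.995 and 1.06 in 5' to 3' order. The window at nt 351 to 400 had the lowest quotient of the spacer's windows, with a mean coverage of 17054 in wild type and 15846 in npl3Δ.

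Towards the 3' end of the spacer all windows were at least 1.5-fold higher in npl3Δ. Mean coverage was 6304 in wild type and 9948 in npl3Δ at nt 551 to 600, a quotient of 1.58 (1.53 to 1.63), and 8492 and 12872 at nt 601 to 650, a quotient of 1.52 (1.47 to 1.56). The last window, nt 651 to 700, had the lowest coverage of the 14 in wild type with 3217 and rose most, to 8488 in npl3Δ, a quotient of 2.64 (2.53 to 2.75).

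**Figure D2:**
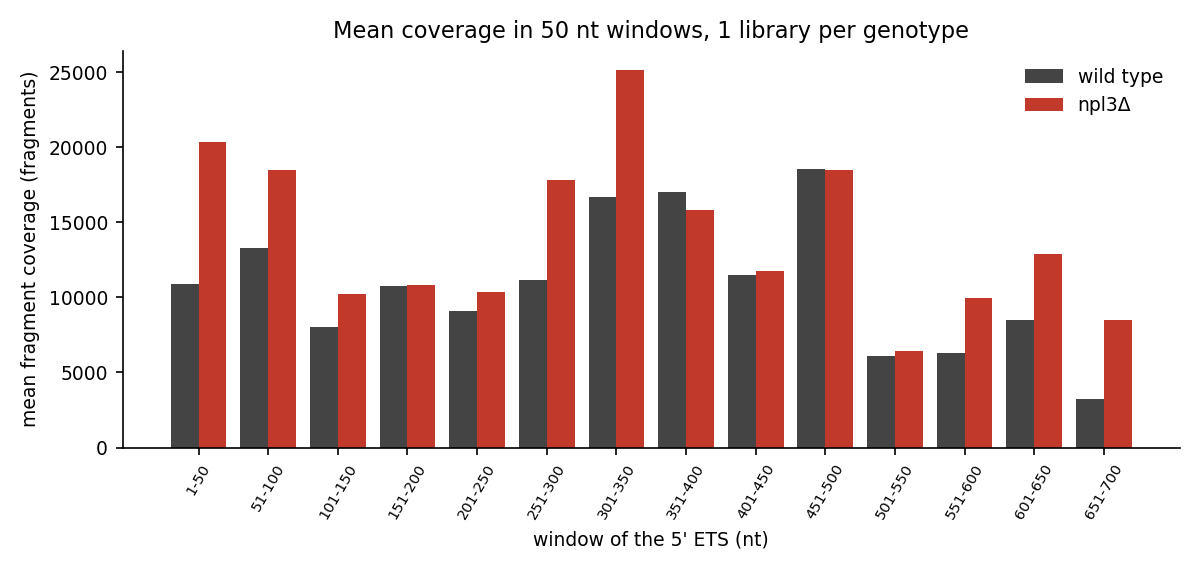
Mean fragment coverage (bars from 0) in the 14 windows of 50 nt of the 5' ETS, with 1 library per genotype and therefore no error bars. The bars differ most at nt 1 to 100, 251 to 350 and 551 to 700, and the bars of the windows from nt 351 to 550 are nearly equal.

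The position of the windows relative to no change depended on the denominator, but their order did not. Divided by the 18S counts, all 14 windows were above 1. With the non-rRNA counts as denominator, 7 were above 1, from 1.00 for nt 51 to 100, within the counting error of no change, to 1.90 for nt 651 to 700. These were the windows at nt 1 to 100, 251 to 350 and 551 to 700. Without ATG26 and BDF1 in that denominator 8 windows were above 1.

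**Figure D3:**
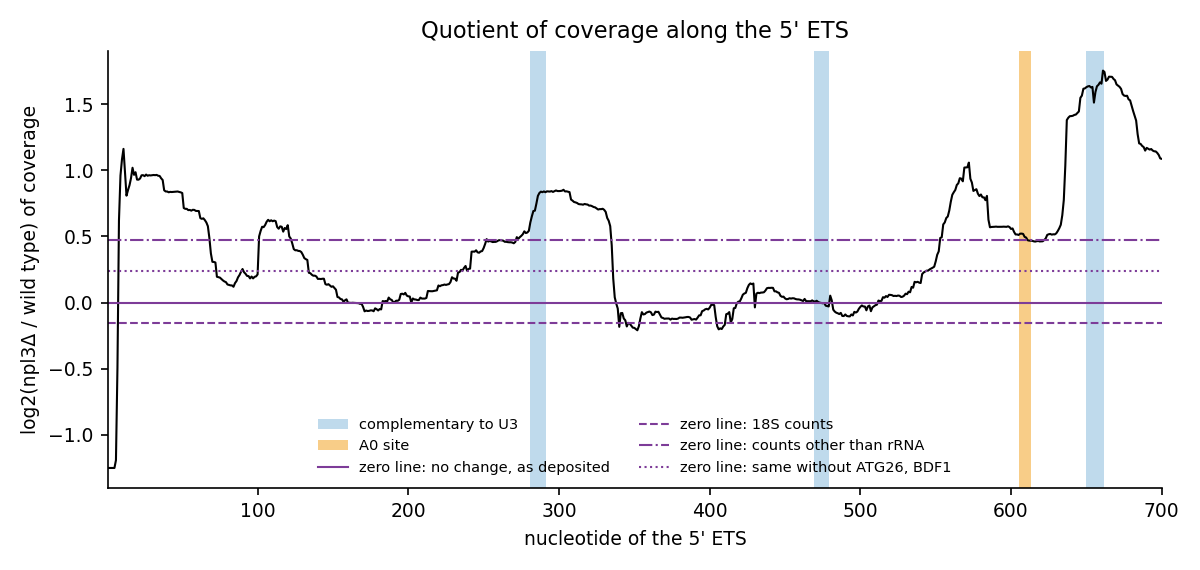
Log2 of npl3Δ coverage over wild type coverage for each nucleotide of the 5' ETS. The horizontal lines show where no change lies for each denominator. The curve starts at -1.25, peaks at 1.75 at nt 661 and lies above the line for the non-rRNA counts, at 0.48, mostly near the 5' end, around nt 300 and beyond nt 550.

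At the 5' end, coverage began some nucleotides inside the annotated spacer. Over the first 10 nt mean coverage was 67.4 in wild type and 77.4 in npl3Δ. It went from 126 at nt 10 through 826 at nt 11 to 3571 at nt 12 in wild type, and from 267 through 1849 to 7078 in npl3Δ, which are the capital letters of the 5' end above. At nt 1, the nucleotide with the lowest log2 quotient and the lowest coverage in npl3Δ, coverage was 50 in wild type and 21 in npl3Δ, a log2 quotient of -1.25. The lowest coverage in wild type was 48, at nt 6. The direction changed at nt 8, with 80 and 123, and from there to nt 159 coverage was higher in npl3Δ at every nucleotide.

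Coverage then climbed to nt 60, where it was 22445 in wild type and 36285 in npl3Δ, the highest value of the npl3Δ library within the spacer. Over nt 11 to 60, a stretch set after the values were seen, the quotient was 1.80 (1.77 to 1.84). The start of the mature 18S rRNA had a similar delay. There coverage first passed 10% of the 18S mean at its nt 12 in wild type and nt 13 in npl3Δ, and in the 5' ETS it first passed 10% of the spacer mean at nt 12 and nt 11. The first 50 nt of the 18S rRNA were also raised in npl3Δ, from 714344 to 1253879, a quotient of 1.76, although the quotient over the 18S rRNA as a whole was 0.894. What this shared rise at the starts of both regions has to do with the first window was not tested.

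U3 binds the 5' ETS through its hinge, and in yeast the pairings at nt 281 to 291 and nt 470 to 479 are the known ones. A search for perfect complementarity of at least 10 nt to SNR17A, one of the U3 genes, found the stretch at nt 470 to 479 and a stretch of 12 nt at nt 650 to 661, which is a match of letters only. The stretch at nt 281 to 291 has 9 Watson-Crick and 2 G-U pairs and was found when G-U pairs were allowed, which was added after the perfect matches were known. In the annotated SNR17A gene, which includes its intron, these stretches pair with nt 219 to 229 (CCACTGAATCC), nt 196 to 205 (CACTCTTTGA) and nt 271 to 282 (AGAAACCGAAAT), in the order of the spacer. SNR17B, the other U3 gene, holds the same letters for nt 470 to 479, at nt 169 to 178 of the annotated gene. Nearer the start of that gene, its nt 87 to 96 perfectly match 10 nt of the spacer, nt 344 to 353. Whether this part of the gene remains in the mature U3 snoRNA was not tested, so it is a match of letters only. The npl3Δ library had a mean coverage of 12532 over this spacer stretch, against 14177 for wild type.

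The U3 stretches differed in their change. At nt 281 to 291 mean coverage was 13385 in wild type and 23144 in npl3Δ, a quotient of 1.73 (1.69 to 1.77). At nt 470 to 479 it was 23776 and 23679, a quotient of 0.996 (0.978 to 1.01), a difference within the counting error. At nt 650 to 661 it was 1721 and 5342, a quotient of 3.10 (2.94 to 3.28), the lowest of the 3 levels and the largest of the 3 quotients.

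Both known U3 stretches lay at edges of the profile. Inside the first one, coverage jumped from 8526 at nt 285 to 14045 at nt 286 and 19235 at nt 287 in wild type, and from 14320 through 24570 to 34165 in npl3Δ. The jump to nt 286 was the largest rise at a single nucleotide in npl3Δ and ranked second in wild type. The highest wild type coverage of the whole spacer, 25205, was found at nt 470, the first nucleotide of the second U3 stretch, where npl3Δ had 25335. Directly behind that stretch, coverage fell from 21165 at nt 479 to 15620 at nt 480 in wild type, the largest fall at a single nucleotide in this library, and from 20735 to 16195 in npl3Δ.

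Rises and falls were spaced by the length of a read. The correlation between rises at a nucleotide and falls further downstream, computed over the 700 nucleotides as a description, was highest at a distance of 50 nt in wild type (0.75) and in npl3Δ (0.73), among distances up to 200 nt. The sequencing reads were 50 nt long. The rise at nt 430, of 5793 in wild type and 4672 in npl3Δ, thus stood 50 nt before the fall at nt 480, and the rise at nt 12 stood 50 nt before nt 62, where coverage fell by 3210 and 6320. Coverage may therefore count reads and not fragments, and the intervals given here, which take it as a number of fragments, would then be too narrow wherever both reads of a fragment overlap. Over stretches much longer than a read the intervals are instead too wide, because mean coverage is below the number of fragments there. For the whole spacer mean coverage was 10791 in wild type, against 106616 counts as the mean of the copies. Whether the steps are ends of the pre-rRNA or arose in library preparation was not tested.

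Coverage steps, measured as log2 of the mean of 20 nt after a position over the mean of 20 nt before it, reached 1 in size at 11 positions of the spacer and its ends in either library. All 11 had the same direction in both libraries, and 8 reached this size in both. The largest was the start of the spacer, 7.53 in wild type and 9.38 in npl3Δ. The junction with the 18S rRNA followed with 5.91 and 5.49. Of the inner steps, those in the stretch at nt 351 to 550 were nearly equal between the libraries. The fall at nt 406 was -1.26 in wild type and -1.25 in npl3Δ, the rise at nt 430 was 1.64 and 1.71, and the fall at nt 485 was -1.19 and -1.27.

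The steps outside that stretch differed more. The fall at nt 70 was -0.99 in wild type and -1.47 in npl3Δ. The fall at nt 335 was -0.62 and -1.42. The rise at nt 286 was 1.00 and 1.30. On the 3' side the order turned, and the steps were smaller in npl3Δ. The rise at nt 584 was 1.73 in wild type and 1.43 in npl3Δ, the fall at nt 636 was -2.40 and -1.44, and the rise at nt 670 was 1.15 and 0.92. The fall at nt 636 had the largest difference among the inner steps, 0.96. It stands where the run of 11 A begins in the A1 line above, and also about a read length behind the rise at nt 584. The fall at nt 335 likewise stands about a read length behind the rise at nt 286. What the run of A or these spacings have to do with the steps was not tested.

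Cleavage at A0 divides the spacer into 5'-A0, nt 1 to 609, and A0-A1, nt 610 to 700. Reads over these stretches can come from the released fragments and from pre-rRNA that still holds the spacer. Coverage does not tell these apart, so the values below are those of the stretches and not of the fragments. Over the 609 nt 5' of A0 mean coverage was 11623 in wild type and 14675 in npl3Δ, a quotient of 1.26 (1.23 to 1.29). Over the 91 nt from A0 to A1 it was 5225 and 10001, a quotient of 1.91 (1.85 to 1.98). Coverage was higher in npl3Δ at 459 of the 609 nucleotides and at all 91. The A0-A1 stretch thus had 45.0% of the mean coverage of the 5'-A0 stretch in wild type and 68.1% in npl3Δ, a change by a factor of 1.52 (1.45 to 1.58, normal approximation on the log scale). This factor does not depend on library size. It rose to 2.09 without 25 nt on either side of A0 and to 2.29 with median in place of mean coverage.

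No step in coverage was found at A0 itself. Over the listed positions (457820 to 457827) mean coverage was 12266 in wild type and 17286 in npl3Δ, a quotient of 1.41 (1.38 to 1.44). It went from 12160 at nt 609 to 12253 at nt 610 in wild type and from 17160 to 17230 in npl3Δ. On the scale of the steps, the value at A0 was -0.07 in wild type and -0.13 in npl3Δ. The site lies inside a stretch of about 50 nt, the length of a read, between the rise at nt 584 and the fall at nt 636. Coverage had no edge at the site but declined towards the 3' end of this stretch. From the mean over the listed positions to nt 633 it fell to 9294.5 in wild type and to 13975 in npl3Δ. The quotient was alike on both sides, 1.55 (1.51 to 1.59) over the last 50 nt before A0 and 1.62 (1.57 to 1.67) over the first 50 nt after it.

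The part of A0-A1 that rose most lay beyond nt 636. Within the run of 11 A at nt 636 to 646, the longest run of one base in the spacer, mean coverage was 2220 in wild type and 5771 in npl3Δ, a quotient of 2.60. The longest run of U, 6 nt at nt 665 to 670, had 2075 and 6674, a quotient of 3.22. The highest log2 quotient of the spacer, 1.75, was found at nt 661, with a coverage of 1549 in wild type and 5227 in npl3Δ, and leaving aside 25 nt at either end of the spacer this was also the lowest coverage in wild type. In npl3Δ the lowest coverage by the same measure was 4100 at nt 421, where wild type had 4011. The largest quotient therefore fell where wild type coverage, its denominator, was smallest.

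At A1 the spacer joins the 18S rRNA. Over the positions listed for the site (457729 to 457736), nt 697 to 704, mean coverage was 5045 in wild type and 10700 in npl3Δ, a quotient of 2.12 (2.05 to 2.19). The last nucleotide of the spacer had 4928 and 10471 and the first of the 18S rRNA had 5060 and 10640. The last 10 nt of the spacer had 4655 and 10216, a quotient of 2.19 (2.12 to 2.27), and the first 10 nt of the 18S rRNA had 5688 and 11663, a quotient of 2.05 (1.99 to 2.12). The step given above for this junction came from the nucleotides behind the 10th of the 18S rRNA, where coverage reached 771600 in wild type and 1361600 in npl3Δ by the 20th nucleotide.

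**Figure D4:**
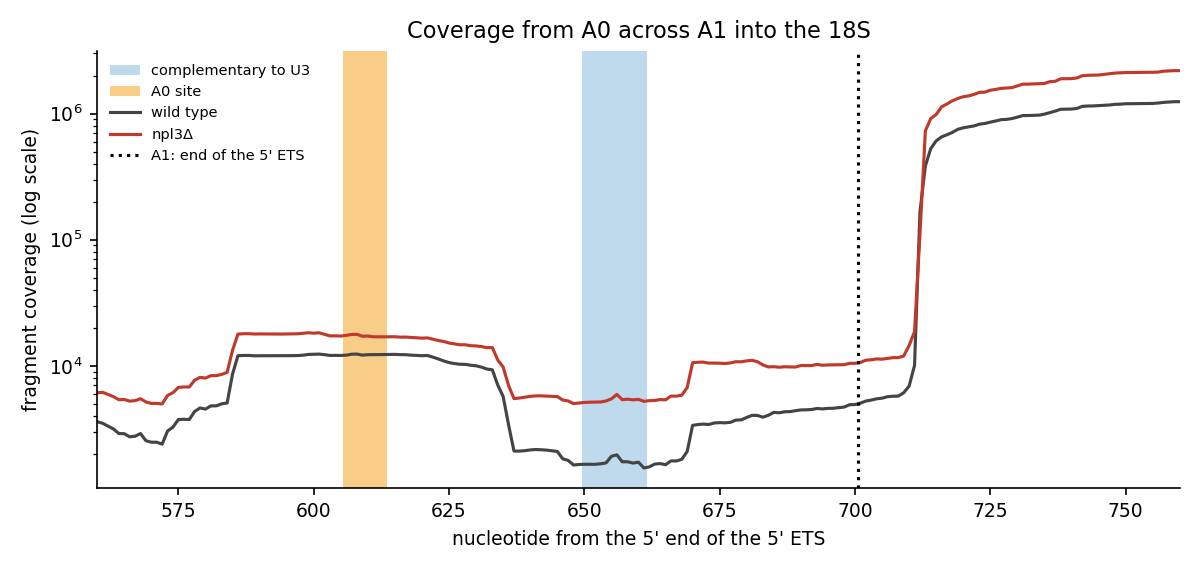
Fragment coverage (log axis) from nt 560 across A0 and A1 into the first part of the 18S rRNA, 1 library per genotype. The lines are parallel across A0, furthest apart between nt 636 and 670, and both continue across A1 before they rise more than 10 nt inside the 18S rRNA.

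Some of the study's own primers and probes fall in the spacer and were placed by exact match of their letters. The nucleotides between the primers at nt 1 and nt 135 had a mean coverage of 10664 in wild type and 16771 in npl3Δ, a quotient of 1.57 (1.53 to 1.61). Between nt 91 and nt 296 the means were 9518 and 11755, a quotient of 1.24 (1.20 to 1.27), and between nt 615 and nt 695 they were 4818 and 9547, a quotient of 1.98 (1.91 to 2.05). A quotient measured in the spacer thus depended on the amplicon.

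Composition and predicted folding varied along the spacer with the coverage only in part. The A0-A1 stretch had 33.0% GC and 39.6% U, against 43.2% and 28.7% 5' of A0. Over the 28 windows of 25 nt the log2 quotient had a Spearman correlation of -0.42 with the GC content and of -0.36 with the wild type coverage. Wild type coverage is the denominator of the quotient, which by itself pulls the correlation between them down. The mean probability of being unpaired, predicted from the sequence alone, had a Spearman correlation of 0.52 with coverage in wild type and 0.48 in npl3Δ, and of -0.07 with the quotient. Windows share fragments with their neighbours and the last windows are at once poor in GC, low in coverage and most raised, so these values describe the profile and carry no test.

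Between the libraries, the shape of the profile was largely kept. The log2 coverage of the 700 nucleotides had a Pearson correlation of 0.92 and coverage a Spearman correlation of 0.91, as a description over nucleotides that share fragments. Relative to each library's own total over the spacer, 12.5% of the coverage would have to be moved to turn one profile into the other. The coefficient of variation was 55.2% in wild type and 59.6% in npl3Δ.

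The spread of the quotient along the 5' ETS lay between that of the internal spacers ITS1 and ITS2. The log2 quotient had an SD of 0.50 over the nucleotides of the 5' ETS, 0.20 over the 361 of ITS1, and 0.81 over the 232 of ITS2. It was 0.44 over the 18S rRNA and 0.46 over the whole 35S rRNA, and 0.45 over the 5' ETS without 25 nt at either end. The spread in the 5' ETS was thus near that of the transcript as a whole. Coverage was higher in npl3Δ at all nucleotides of ITS1, where the lowest log2 quotient was 0.26. In the 5' ETS the stretch at nt 351 to 550 reached down to -0.21 at nt 352. With 1 library per genotype these differences have no test.

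**Figure D5:**
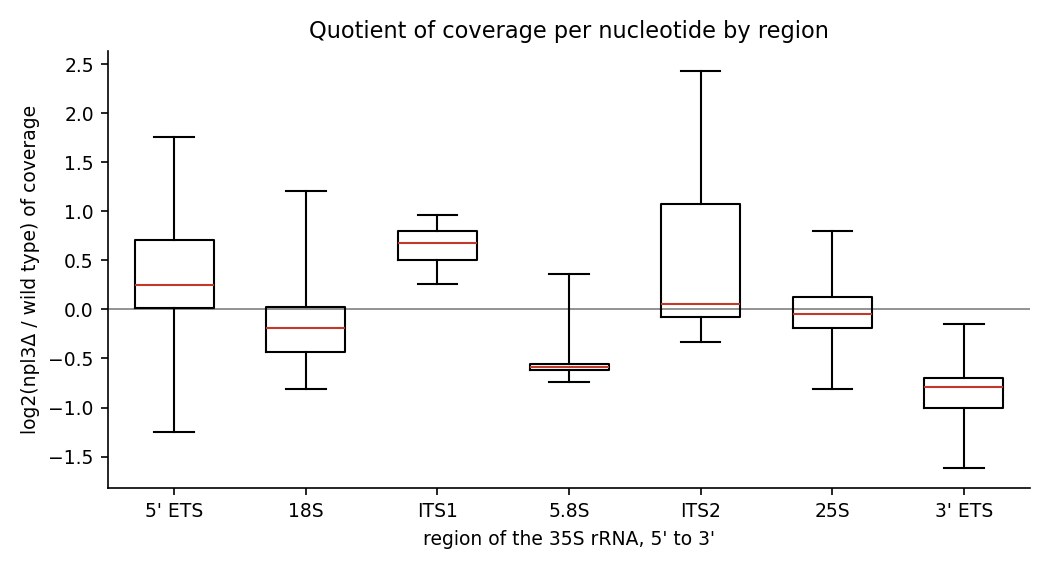
Log2 of npl3Δ coverage over wild type coverage per nucleotide, by region of the 35S rRNA. Boxes show the median and the middle 50% of nucleotides, whiskers the lowest and highest, and the 5' ETS spans from -1.25 to 1.75 with a median of 0.25, wider than ITS1 and narrower in its box than ITS2.

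Few genes of the factors that bind or degrade the 5' ETS passed a 1.5-fold difference in these libraries. After scaling by the non-rRNA counts, 0 of the 45 genes in the lists were at least 1.5-fold higher in npl3Δ, against 16.7% of the 6118 genes with at least 10 counts, and 2 were at least 1.5-fold lower, against 12.1%. The 10 counts refer to both libraries together, and genes with so few counts pass the threshold more easily through counting error. The listed genes had at least 61 wild type counts each, so these shares are not matched for counts. The U3 snoRNA itself had 21687 wild type and 30261 npl3Δ counts at SNR17A, a scaled quotient of 1.00 (0.986 to 1.02), and 7131 and 7434 at SNR17B, a scaled quotient of 0.750 (0.726 to 0.774). These genes share most of their sequence, so that the division of reads between them is uncertain. In the U3 snoRNP list the methyltransferase NOP1 was lowest with 1796 and 1687 counts (0.675) and NOP58 highest with 789 and 1262 (1.15).

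Of the UTP-A list, which binds the 5' end of the spacer first, all 8 genes had scaled log2 quotients below 0, as had 48.7% of all genes. When ATG26 and BDF1 were left out of the scaling, 6 of the 8 and 29.2% of all genes were below 0. The median was -0.49, against 0.02 for all genes. UTP15 was lowest with 296 wild type and 255 npl3Δ counts, a quotient of 0.619 (0.522 to 0.735), and UTP8 highest with 376 and 483 (0.924). The 6 genes of the UTP-B list had a median of -0.29, from UTP21 with 677 and 620 counts (0.658) to UTP13 with 387 and 504 (0.936). In the Mpp10 complex MPP10 had 449 and 440 counts (0.705) and IMP4 had 146 and 226 (1.11).

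In the list of 22 genes for decay of the 5' ETS, the median log2 quotient was -0.17. The exonuclease subunit of the exosome DIS3 was lowest, with 530 wild type and 505 npl3Δ counts (0.685), and PAP2, a poly(A) polymerase of the TRAMP complex also known as TRF4, was highest with 151 and 302 (1.44, 1.18 to 1.76). Without ATG26 and BDF1 in the scaling all log2 quotients are 0.24 higher, PAP2 becomes the 1 listed gene at least 1.5-fold higher, against 26.8% of all genes, and 0 are at least 1.5-fold lower, against 6.82%. The medians then become -0.25 for UTP-A, -0.05 for UTP-B, 0.07 for decay and 0.26 for all genes.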

How the data were processed

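Total RNA of 1 wild type and 1 npl3Δ culture was sequenced without rRNA depletion. Per the submitters' processing notes and the study's methods, HISAT2 and the build sacCer3 (R64) served the authors for mapping and featureCounts for counting. The deposited counts are whole numbers per feature without normalization, and rRNA reads enter the table under the 35S rRNA and under its parts. The deposited coverage is a signal per nucleotide of the reverse strand from deeptools2, unscaled. Versions and the handling of reads with several possible places are not given in the sources used here. All coverage values are multiples of 0.5, and 1.68% of them in wild type and 3.19% in npl3Δ are not whole.

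The coverage file lists 6958 positions, the 35S rRNA with 50 nt on either side. Although its header reads 5'-3', the first position was taken as the 3' end, since only then do the mature rRNAs have the high coverage. Quotients are npl3Δ over wild type without scaling, as in the study's methods, with 95% exact conditional binomial (Clopper-Pearson) intervals in which mean coverage stands for a number of fragments. Intervals cover counting error only, since the reads carry no molecular identifiers, and those of coverage over long stretches are wider than this error. A0 was taken at the centre of the positions listed by the study. Non-rRNA features exclude the rRNA features and 2 features inside the 35S rRNA.

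The members, lists and tests were chosen with earlier results of these data known. The text names ETS1-1 and ETS1-2, all windows of 50 nt, the nucleotides with extreme coverage or quotient, stretches complementary to SNR17A, A0 and A1, coverage steps, NPL3, and the extremes of 5 gene lists (U3 snoRNP, UTP-A, UTP-B, Mpp10 complex, decay). Other stretches, the G-U pairs, the primer positions, the 18S start, STE2, STE3, ATG26 and BDF1 were singled out after values were seen. Alternatives concern the denominator, the rDNA copy, the nucleotide minimum, window and threshold, and the boundaries and the average of the stretches. Scripts were tested on simulated data. ViennaRNA 2.7.2 (RNAplfold, window 150 nt, span 100 nt), scipy 1.17.1, numpy 2.4.6, matplotlib 3.10.9 and pandas 2.3.3 were used under Python 3.11.15.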

Additional observations from a re-analysis of the deposited data

Results flagged for a closer look

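Coverage was also found in the 50 nt upstream of the annotated start of the 5' ETS, which enter no comparison. Its mean was 23.2 in wild type and 15.3 in npl3Δ, above the 3 fragments that a count of 0 allows. Relative to the spacer mean these values are 0.215% and 0.109%, and the values ran from 6 to 51 in wild type and from 4.5 to 24 in npl3Δ. It was flagged as signal outside the main measurement and stands beside the lower values of npl3Δ at the first 7 nt of the spacer.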

How the results depend on the processing

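Of 32 alternatives, 3 stayed within the 95% interval of the main value, 26 moved beyond it in the same direction and 3 reversed. For the share of nucleotides this is a binomial interval, 75.3% to 81.6%, which takes nucleotides as independent although they are not, and is too narrow. For the coverage quotients of the long stretches the intervals are too wide, since mean coverage stands for the number of fragments. With the non-rRNA counts as denominator, the quotient of the 5' ETS counts fell from 1.34 to 0.966, the share of higher nucleotides from 78.6% to 40.4% and the quotient 5' of A0 from 1.26 to 0.908, all reversed, and that from A0 to A1 from 1.91 to 1.38. Without ATG26 and BDF1 in it they were 1.14, 51.0%, 1.07 and 1.63. Divided by the 18S counts they were 1.497, 96.9%, 1.41 and 2.13, and by the 35S counts 1.42, 89.4%, 1.33 and 2.02. The cause of the reversals was not tested. The share of higher nucleotides over the 35S rRNA was computed only as deposited. The upper quartile of the log2 quotient was 0.20 over the 35S rRNA and 0.71 over the 5' ETS. With the non-rRNA counts no change lies at 0.48, so the share of the 35S rRNA was then below the 40.4% of the 5' ETS. The quotient of the 5' ETS was 1.33 at copy 1, 1.36 at copy 2 and 1.30 for summed coverage. The share of nucleotides was 31.4% for a 1.5-fold higher coverage, 85.7% of windows of 25 nt and 85.7% of windows of 50 nt. Without 25 nt on either side of A0, A0 to A1 gave 2.62 and its change relative to the stretch 5' of A0 gave 2.09. Without 25 nt at both ends of the spacer these were 1.77 and 1.42. With median coverage they were 2.60 and 2.29, and the stretch 5' of A0 gave 1.13. The change of A0 to A1 relative to the stretch 5' of A0 stayed above 1 in the 3 alternatives run for it. No paired analysis was possible because there is 1 library per genotype. Depth limits only the first nucleotides of the spacer, where coverage is below 100 in either library. Elsewhere replicates, not reads, are lacking.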
